A study of Mus musculus with 6 samples.

Results

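The DNA repair and homologous recombination genes described here are 37 genes chosen by symbol, of 22183 genes in the count table. All 37 were present and all 37 passed the filter on low counts. They fall into 14 genes of homologous recombination, 5 genes of the Fanconi pathway, 4 checkpoint kinases, 5 genes for DNA ends and single strands, 2 mismatch repair genes, and 7 genes of excision and single-strand break repair. The last group served as the contrast, because its proteins also work in cells that do not divide.

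The measurements came from 6 RNA samples of mouse liver, 3 labelled PBS and 3 labelled DOX, each sequenced as 1 library. All 6, PBS included, were labelled BucheKI/KI-Hep by genotype and DDC by treatment, and the series describes overexpression of BUCHE (the gene Bche, butyrylcholinesterase) in hepatocytes. All 6 titles also begin with S2W. The labels expand none of S2W, DOX and DDC, and age, sex, strain, the driver of the transgene and the number of animals are not given in the labels. The labels do not tie the 3 samples of each group to different animals, and p-values here therefore reflect only the spread among those samples, which may be technical.

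Homologous recombination copies a broken stretch of DNA from its sister. The broken ends are resected, RPA coats the single strands, and BRCA2 with other mediators prepares them to search for the matching sequence. The Fanconi pathway removes crosslinks between the strands and hands the breaks to recombination, while the kinases ATM and ATR and their targets CHEK2 and CHEK1 hold the cell cycle. A sister copy exists only after replication, so many recombination genes are transcribed mainly in dividing cells. Most hepatocytes of an adult liver rest, and excision repair and the joining of single-strand breaks go on in them.

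Each library held between 32476725 and 41921404 counts. Of 14681 genes tested with edgeR (quasi-likelihood test, p-values adjusted by Benjamini-Hochberg), 2062 were lower and 1975 were higher in DOX at an adjusted p under 0.05. Levels are given as CPM, counts scaled to library size with edgeR's TMM factors. Bche had 177, 177 and 206 CPM in PBS 1 to 3 and 1940, 1870 and 1760 CPM in DOX 1 to 3, which was 9.94-fold higher in DOX (log2 change 3.31, SE 0.14, adjusted p = 1.65e-07). The 14 hepatocyte markers summed to between 120000 and 133000 CPM in PBS and between 129000 and 159000 CPM in DOX.

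Of the 37 repair genes, 20 fell in DOX, 1 rose and 16 did not pass the test. Over all genes tested, 14.0% were called lower and 13.5% were called higher. The median log2 change of the repair genes was -0.61, beside -0.01 for all genes tested. Of the 37, 14 were both called lower and at least 2-fold lower, against 4.99% of all genes tested. All 3 DOX libraries lay below all 3 PBS libraries for 23 repair genes, and all 3 lay above for 1. Those orders were seen for 22.3% and 21.8% of all genes. Of the 37 genes, 32 had a negative change and 5 a positive one. The 37 genes were chosen with earlier results of these data known. The shares of all genes are therefore given as a description and not as a test.

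The count of fallen genes rested partly on single libraries. It was 11 without PBS 2, 12 without DOX 1, 12 without DOX 3, 15 without PBS 3, 18 without DOX 2 and 20 without PBS 1. PBS 2 was the highest PBS library for 26 of the 37 genes and for 16 of the 20 that fell. With scaling by library size alone, which moved the median of all genes to -0.16, 23 repair genes were called lower. Limma on log2(FPKM + 1) without a filter, a scale that shrinks low values, called 8 lower. Beside genes that also depended on single libraries, it did not call Rad51ap1 (adjusted p = 0.0932), Exo1 (0.0694), Rad54b (0.157) or Chek1 (0.0536).

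**Figure D1:**
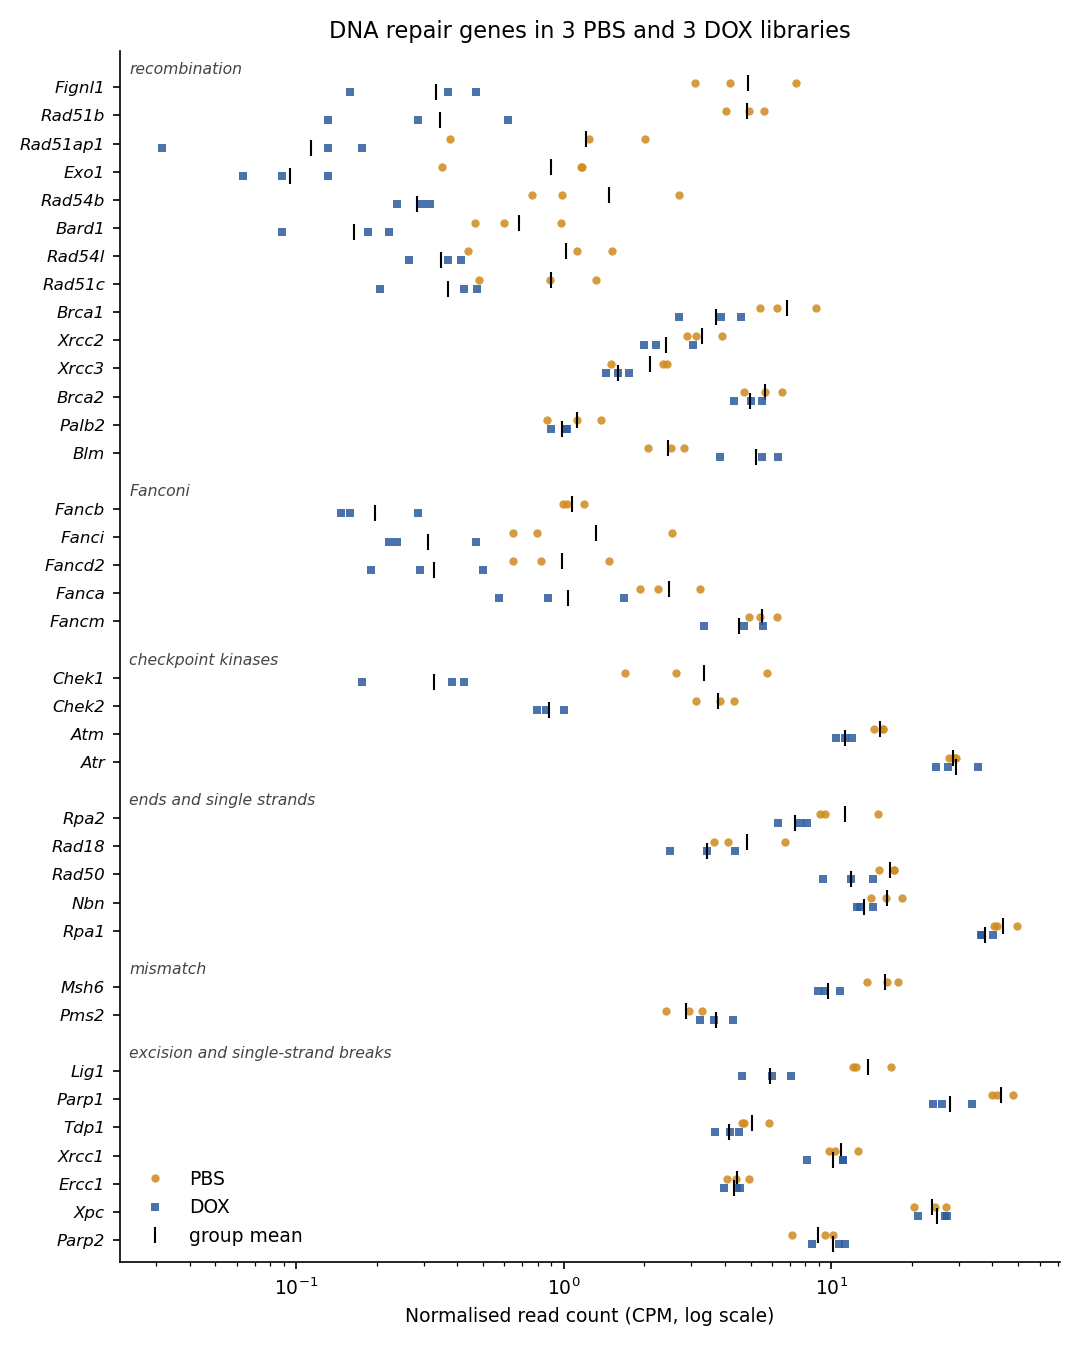
Normalised read count (CPM, log scale) of the 37 repair genes in each of the 3 PBS libraries (circles) and 3 DOX libraries (squares), with the group mean as a bar, by role. Fignl1 and Rad51b show a wide gap between the groups, while Atr, Xpc, Ercc1 and Xrcc1 overlap.

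Among the 14 recombination genes, 8 fell, Blm rose and 5 did not pass. Their median log2 change was -1.41, and 7 of the 8 were at least 2-fold lower. Summed over the group, they had 36.6, 45.6 and 29.8 CPM in PBS 1 to 3 and 19.4, 20.6 and 22.8 CPM in DOX 1 to 3. These sums, 37.3 ± 7.90 in PBS and 20.9 ± 1.74 in DOX (SD, n = 3), did not overlap. The count of 8 became 5 without PBS 2, 6 without DOX 1 or DOX 3, 7 without PBS 3 or DOX 2, and 9 without PBS 1. The median lay between -1.74 and -1.02, the latter without PBS 2.

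Fignl1 and Rad51b showed the largest falls of the 37 genes, and ranked 10 and 11 among the most negative log2 changes of the 14681 genes tested. Fignl1 encodes an ATPase that acts in strand exchange, and Rad51b encodes a mediator of it. Fignl1 lies at chr11:11800288-11808983 and Rad51b at chr12:79297282-79848260 (GRCm38). Their promoters are shown here because their changes were the largest of the 37. Both hold, in capitals, letters of the cell cycle homology region (CHR), a short element of promoters active late in the cell cycle. The first is chr11:11808933-11809212 on the minus strand and the second is chr12:79297101-79297380 on the plus strand, 5′ to 3′, from RefSeq (GRCm38.p6). Each starts 250 bases before a RefSeq start site. Rad51b has another RefSeq start with a window that holds no CHR letters. The last bases of that window lie in an annotated transcript of the gene. Those of the Rad51b window with CHR letters were not found in one. CHR letters were found for 5 of the 30 repair genes with a promoter window, beside 17.0% of tested genes with one.

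Fignl1 promoter: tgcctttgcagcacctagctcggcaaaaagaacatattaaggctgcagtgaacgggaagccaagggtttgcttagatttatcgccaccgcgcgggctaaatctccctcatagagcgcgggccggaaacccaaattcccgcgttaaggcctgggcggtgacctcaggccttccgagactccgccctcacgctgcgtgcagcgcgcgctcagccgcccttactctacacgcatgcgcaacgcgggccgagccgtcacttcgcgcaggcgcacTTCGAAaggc
Rad51b promoter: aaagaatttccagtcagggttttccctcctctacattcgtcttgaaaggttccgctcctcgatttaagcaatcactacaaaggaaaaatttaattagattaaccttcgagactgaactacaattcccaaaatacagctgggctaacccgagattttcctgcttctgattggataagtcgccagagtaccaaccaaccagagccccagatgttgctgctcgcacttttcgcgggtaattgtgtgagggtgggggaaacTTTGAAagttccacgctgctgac

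Fignl1 had 4.19, 7.37 and 3.09 CPM in PBS 1 to 3 and 0.370, 0.472 and 0.159 CPM in DOX 1 to 3. The lowest PBS library stood well above the highest DOX library. In counts, this was 182, 323 and 132 against 14, 16 and 5. Fignl1 was 14.4-fold lower in DOX (log2 change -3.84, SE 0.43, adjusted p = 0.000266).

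Rad51b had 5.62, 4.91 and 4.03 CPM in the PBS libraries and 0.132, 0.619 and 0.286 CPM in the DOX libraries. The 3 PBS libraries were close together, and the DOX libraries held 5, 21 and 9 counts. Rad51b was 14.1-fold lower (log2 change -3.82, SE 0.40, adjusted p = 0.000180), with a log2 change of -4.54 without DOX 2.

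The genes beside them had smaller changes. On one side of Fignl1, Ikzf1, which encodes a transcription factor of lymphoid cells, had a log2 change of -0.14 (adjusted p = 0.45). On the other side lies Ddc, the dopa decarboxylase gene, which shares only its letters with the labelled treatment. Its log2 change was 0.12 (adjusted p = 0.58), and -0.04 with scaling by library size alone. Neither passed the test.

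Both neighbours of Rad51b fell. Zfyve26 lies 959 bases from Rad51b, on the side of lower coordinates. It had 27.5, 26.1 and 28.1 CPM in PBS and 16.5, 20.1 and 18.1 CPM in DOX. Its log2 change was -0.58 (SE 0.11, adjusted p = 0.00406). Zfp36l1, which encodes an RNA-binding protein, lies 259500 bases from Rad51b, on the side of higher coordinates. Zfp36l1 had a log2 change of -0.43 (SE 0.14, adjusted p = 0.0371). Its call was lost without PBS 2 (adjusted p = 0.0501), PBS 3 (0.158), DOX 1 (0.114) or DOX 3 (0.0915).

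Rad51b, Rad51c, Xrcc2 and Xrcc3 encode related mediators that work together in complexes, and they did not move as 1 group: Rad51b fell, and the other 3 did not pass. Rad51c had 0.484, 1.32 and 0.890 CPM in PBS and 0.423, 0.206 and 0.476 CPM in DOX, with a log2 change of -1.28 (SE 0.50, adjusted p = 0.0746). Its DOX libraries lay just below its PBS libraries, and it passed only when PBS 1 was left out (adjusted p = 0.0488) or when libraries were scaled by size alone. Xrcc2 and Xrcc3 had log2 changes of -0.45 (adjusted p = 0.196) and -0.40 (adjusted p = 0.32), and their groups overlapped.

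Rad51ap1, whose protein helps strands to pair, had 1.24, 2.01 and 0.375 CPM in PBS and 0.132, 0.177 and 0.0317 CPM in DOX. PBS 2 and PBS 3 differed 5.36-fold, and the DOX libraries held only 5, 6 and 1 counts. It was 10.2-fold lower (log2 change -3.35, SE 0.71, adjusted p = 0.00604).

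Rad54b encodes a motor protein that acts on chromatin during strand exchange. It had 0.760, 2.69 and 0.984 CPM in PBS and 0.238, 0.295 and 0.317 CPM in DOX, 5.20-fold lower (log2 change -2.38, SE 0.54, adjusted p = 0.00818). Without PBS 2 the log2 change was -1.62 (adjusted p = 0.0451). Rad54b shares 2068 exon bases with Fsbp on the same strand, so its counts cannot be told apart from those of Fsbp with certainty.

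Rad54l, the main gene of that motor family, had 0.438, 1.51 and 1.12 CPM in PBS and 0.370, 0.265 and 0.413 CPM in DOX. PBS 1 lay close to the DOX libraries. It was 2.91-fold lower (log2 change -1.54, SE 0.50, adjusted p = 0.0398). This call was lost when any 1 of PBS 2 (adjusted p = 0.174), PBS 3 (0.103), DOX 1 (0.0975), DOX 2 (0.0866) or DOX 3 (0.0811) was left out.

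Exo1, which encodes a nuclease that resects broken ends, had 1.17, 1.16 and 0.351 CPM in PBS and 0.132, 0.0884 and 0.0635 CPM in DOX. The DOX libraries held 5, 3 and 2 counts, all below the 51, 51 and 15 counts of PBS. It was 9.05-fold lower (log2 change -3.18, SE 0.63, adjusted p = 0.00434).

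Brca1 and its partner Bard1, which together form a ubiquitin ligase that promotes resection, both fell. Brca1 had 5.39, 8.74 and 6.28 CPM in PBS and 2.70, 4.6 and 3.87 CPM in DOX, 1.83-fold lower (log2 change -0.87, SE 0.24, adjusted p = 0.0206). Bard1 had 0.599, 0.981 and 0.468 CPM in PBS and 0.185, 0.0884 and 0.222 CPM in DOX, 4.08-fold lower (log2 change -2.03, SE 0.54, adjusted p = 0.0165). The groups did not overlap for either gene. The call of Bard1 was lost without PBS 2 (adjusted p = 0.083), and that of Brca1 without PBS 2 (0.0982), DOX 1 (0.0757) or DOX 3 (0.053).

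Brca2, a mediator of strand exchange, and Palb2, which links BRCA1 to BRCA2, did not pass. Brca2 had 6.54, 5.66 and 4.71 CPM in PBS and 4.34, 5.51 and 5.02 CPM in DOX (log2 change -0.19, SE 0.19, adjusted p = 0.493). Palb2 had a log2 change of -0.19 as well (SE 0.34, adjusted p = 0.707). Both genes had overlapping groups.

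Blm was the only repair gene of the 37 that rose. It encodes a RecQ helicase that resects ends and undoes joined DNA molecules. Blm had 2.51, 2.81 and 2.06 CPM in PBS and 5.50, 3.83 and 6.32 CPM in DOX. Every DOX library lay above every PBS library, and Blm was 2.12-fold higher (log2 change 1.08, SE 0.24, adjusted p = 0.00686). On the log2(FPKM + 1) scale without a filter, limma gave an adjusted p of 0.0791.

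**Figure D2:**
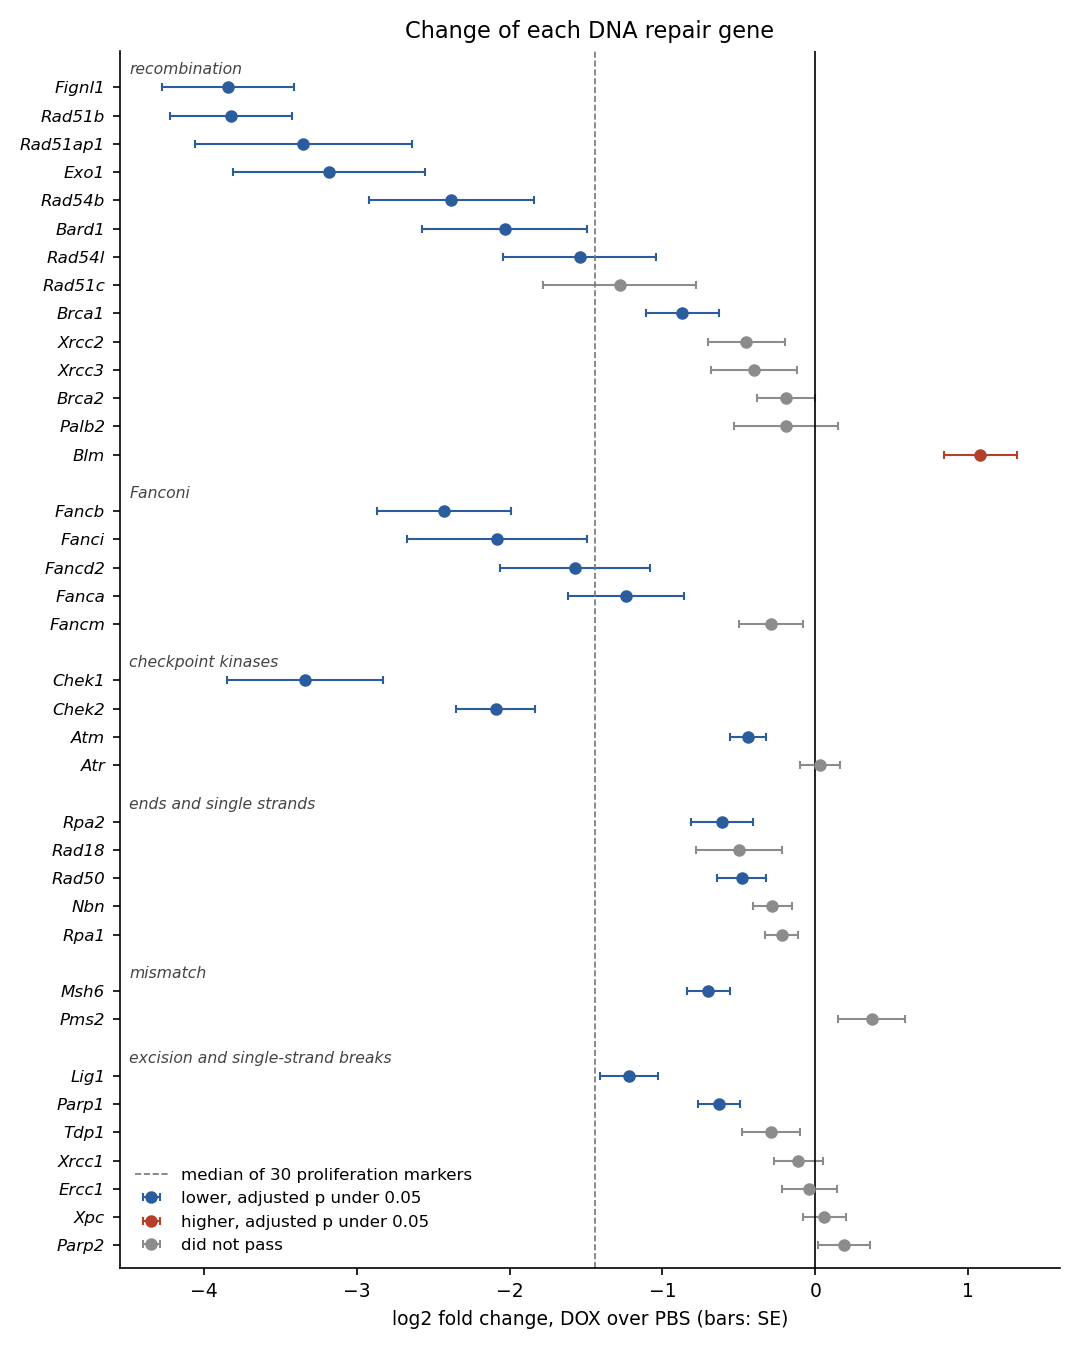
Log2 fold change of each repair gene in DOX over PBS with its SE (edgeR, n = 3 against 3), by role, with the median of 30 proliferation markers (-1.44) as a dashed line. Recombination, Fanconi and checkpoint genes reach from -3.84 to 1.08, and the excision group from -1.22 to 0.19.

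The Fanconi genes fell in 4 of 5 cases, with a median log2 change of -1.57. Fancb, a subunit of the core complex that marks the crosslink, had 0.990, 1.19 and 1.03 CPM in PBS and 0.159, 0.147 and 0.286 CPM in DOX. Its PBS libraries differed by only 1.20-fold, and it was 5.41-fold lower (log2 change -2.43, SE 0.44, adjusted p = 0.00274). Fanca, of the same complex, had 1.93, 3.22 and 2.25 CPM in PBS and 0.873, 1.68 and 0.571 CPM in DOX, 2.36-fold lower (log2 change -1.24, SE 0.38, adjusted p = 0.032). The call of Fanca was lost without PBS 2 (adjusted p = 0.126), PBS 3 (0.0624), DOX 1 (0.107) or DOX 3 (0.101).

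Fancd2 and Fanci encode the pair of proteins that the core complex marks with ubiquitin, and both fell. Fancd2 had 0.645, 1.48 and 0.820 CPM in PBS and 0.291, 0.501 and 0.190 CPM in DOX, 2.97-fold lower (log2 change -1.57, SE 0.49, adjusted p = 0.0343). Fanci had 0.645, 2.53 and 0.796 CPM in PBS and 0.238, 0.472 and 0.222 CPM in DOX, 4.24-fold lower (log2 change -2.08, SE 0.59, adjusted p = 0.0229). PBS 2 was the highest library for both. Without PBS 2, neither passed: the adjusted p was 0.167 for Fancd2 and 0.144 for Fanci, whose log2 change became -1.21. Fancd2 was also lost without PBS 3 (0.0593), DOX 1 (0.107) or DOX 3 (0.116), and Fanci without DOX 1 (0.0891) or DOX 3 (0.0803).

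Fancm, whose protein anchors the core complex to DNA, had 4.91, 6.25 and 5.41 CPM in PBS and 3.33, 4.72 and 5.56 CPM in DOX. Its groups overlapped, and its log2 change of -0.29 (SE 0.21) did not pass (adjusted p = 0.34).

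Within each axis, the checkpoint kinases differed in the size of their change. Chek1, the target of ATR, had 1.70, 5.73 and 2.62 CPM in PBS and 0.423, 0.177 and 0.381 CPM in DOX. It was 10.1-fold lower (log2 change -3.34, SE 0.51, adjusted p = 0.00148), and -2.71 on the log2 scale without PBS 2 (adjusted p = 0.0044). Atr itself had 28.7, 27.5 and 29.3 CPM in PBS and 24.5, 35.4 and 27.3 CPM in DOX. Its log2 change of 0.03 (SE 0.13, adjusted p = 0.905) did not pass, and was -0.13 with scaling by library size alone or without DOX 2.

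Chek2, the target of ATM, had 3.11, 4.34 and 3.84 CPM in PBS and 0.794, 1.0 and 0.857 CPM in DOX. The libraries of each group were close together, and Chek2 was 4.25-fold lower (log2 change -2.09, SE 0.26, adjusted p = 0.000468). Atm had 14.4, 15.6 and 15.6 CPM in PBS and 10.4, 11.9 and 11.2 CPM in DOX, a 1.36-fold fall without overlap (log2 change -0.44, SE 0.12, adjusted p = 0.0209). The call of Atm was lost without PBS 2 (adjusted p = 0.0728), PBS 3 (0.070), DOX 1 (0.0683) or DOX 3 (0.053).

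The 5 genes for DNA ends and single strands had smaller changes, from -0.61 to -0.22 on the log2 scale, and 2 passed. Rad50, of the complex that first holds broken ends, had 17.2, 17.1 and 15.1 CPM in PBS and 9.31, 14.3 and 11.8 CPM in DOX, 1.40-fold lower (log2 change -0.48, SE 0.16, adjusted p = 0.0408). Rpa2, a subunit of the single-strand binding protein RPA, had 9.49, 14.9 and 9.09 CPM in PBS and 7.62, 6.31 and 8.09 CPM in DOX, 1.52-fold lower (log2 change -0.61, SE 0.20, adjusted p = 0.0428). Neither pair of groups overlapped, yet both calls depended on single libraries. Rad50 did not pass without PBS 1 (adjusted p = 0.111), PBS 2 (0.114), PBS 3 (0.0628), DOX 1 (0.131) or DOX 3 (0.0953). Rpa2 did not pass without PBS 2 (0.208), DOX 1 (0.094), DOX 2 (0.0984) or DOX 3 (0.0678).

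Rpa1, the large RPA subunit, had 40.5, 49.4 and 41.5 CPM in PBS and 40.2, 36.5 and 36.1 CPM in DOX (log2 change -0.22, SE 0.11, adjusted p = 0.157). Its DOX libraries all lay below its PBS libraries by a narrow margin, and it was called lower with scaling by library size alone and by limma on FPKM values after the same filter. Nbn, which encodes a partner of RAD50, had a log2 change of -0.28 (adjusted p = 0.136) and was called lower with scaling by library size alone. Rad18, a ubiquitin ligase for stalled forks, had a log2 change of -0.50 (adjusted p = 0.201).

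Of the mismatch repair genes, Msh6 fell and Pms2 did not pass. Msh6, whose protein recognises mispaired bases, had 16.1, 17.7 and 13.6 CPM in PBS and 8.94, 10.8 and 9.43 CPM in DOX. The groups did not overlap, and Msh6 was 1.63-fold lower (log2 change -0.70, SE 0.14, adjusted p = 0.005). Pms2, the nuclease subunit that acts after recognition, had 2.93, 3.29 and 2.41 CPM in PBS and 3.63, 3.24 and 4.29 CPM in DOX (log2 change 0.37, SE 0.22, adjusted p = 0.233).

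In the excision and single-strand break group, 2 of 7 genes fell, none rose and 5 did not pass, with a median log2 change of -0.11 that ranged from -0.19 without DOX 1 to 0.03 without DOX 2. Lig1, the ligase that seals newly copied DNA as well as repair patches, had 12.0, 16.7 and 12.4 CPM in PBS and 7.07, 4.63 and 6.0 CPM in DOX. It was 2.32-fold lower without overlap (log2 change -1.22, SE 0.19, adjusted p = 0.00135). Parp1, the main sensor of strand breaks, had 39.7, 41.5 and 47.6 CPM in PBS and 25.8, 33.4 and 24.0 CPM in DOX, 1.55-fold lower (log2 change -0.63, SE 0.14, adjusted p = 0.00632). The counts of 2 lower and 0 higher were the same in all 14 alternative analyses, DESeq2 and limma included.

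The other 5 genes did not pass. Parp2, a second sensor, had 9.49, 10.1 and 7.12 CPM in PBS and 10.7, 8.49 and 11.2 CPM in DOX (log2 change 0.19, SE 0.17, adjusted p = 0.453). Xrcc1, the scaffold of single-strand break repair, had 9.81, 10.3 and 12.6 CPM in PBS and 11.1, 8.10 and 11.1 CPM in DOX (log2 change -0.11, SE 0.16, adjusted p = 0.648). Both had overlapping groups, and the sign of Xrcc1 was positive without DOX 2 (0.04).

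Xpc, the damage sensor of nucleotide excision repair, had 26.7, 20.4 and 24.4 CPM in PBS and 26.5, 21.0 and 27.1 CPM in DOX. Its log2 change was 0.06 (SE 0.14, adjusted p = 0.766), and -0.09 with scaling by library size alone. Ercc1, a nuclease subunit of the same pathway, had 4.40, 4.06 and 4.92 CPM in PBS and 4.45, 3.98 and 4.57 CPM in DOX, with a log2 change of -0.04 (SE 0.18, adjusted p = 0.889) that was 0.03 without PBS 3 or DOX 2. Tdp1, which frees trapped topoisomerase from DNA, had 4.63, 5.84 and 4.73 CPM in PBS and 4.52, 3.68 and 4.19 CPM in DOX (log2 change -0.29, SE 0.19, adjusted p = 0.27). For Tdp1 alone of these 5, the groups did not overlap.

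Set side by side, the recombination genes had 8 of 14 lower and a median of -1.41, and the excision genes had 2 of 7 lower and a median of -0.11. Without Lig1, which also serves replication, the excision genes had 1 of 6 lower and a median of -0.08. With the Fanconi genes added, recombination had 12 of 19 lower and a median of -1.54. Among repair genes outside the 37, given below, the contrast was smaller. Further recombination genes had 9 of 28 lower (median -0.34). Base excision genes had 6 of 21 lower (median -0.31), and nucleotide excision genes 1 of 20 (median 0.08). Beside these, 14.0% of all genes tested were called lower, and the median log2 change of all genes tested was -0.01. These are counts and medians over genes that share 6 libraries, and the difference between the groups was not tested. Within the 14 recombination genes the changes reached from -3.84 for Fignl1 to 1.08 for Blm, so the group did not move as 1.

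Levels per gene length, as the deposited FPKM, differed between the genes. Mean PBS levels of the 37 genes ran from 0.129 FPKM for Bard1 to 13.6 FPKM for Rpa1. Parp1 had 12.4 FPKM and Lig1 3.97 FPKM, while Fignl1 had 1.52 FPKM and Rad51b 0.944 FPKM. Of 20 repair genes under 1 FPKM, 12 fell, beside 11.8% of all genes under 1 FPKM, and their median log2 change was -1.56. Of 17 at 1 FPKM or more, 8 fell, beside 14.8% of all such genes, and their median was -0.45. Across the 37 genes, the PBS level and the log2 change had a Spearman correlation of 0.36 and a Pearson correlation of 0.35 (log2 FPKM), as a description over genes that share the same libraries.

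**Figure D3:**
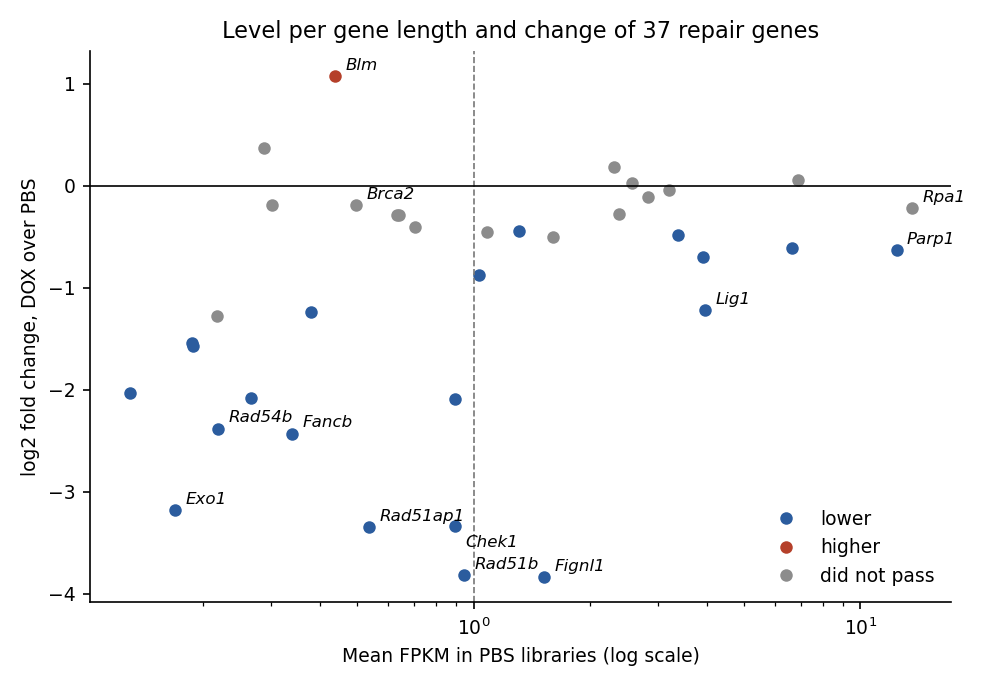
Mean PBS level per gene length (FPKM, log scale) of each of the 37 repair genes against its log2 fold change in DOX over PBS, with a dashed line at 1 FPKM. The 5 changes under -3 lie at low levels, Fignl1 the highest of them at 1.52 FPKM, while Rpa1 and Parp1 at the right lie near 0 and -0.63.

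Promoter windows of 300 bases were at hand for 30 of the 37 genes (RefSeq, GRCm38.p6). The E2F letters searched were TTTGGCGC, TTTCCCGC, TTTGCCGC or TTTCGCGC on either strand, the element that E2F factors bind in many replication genes. They were found in windows of 6 of the 30 genes, in 4 of 16 that fell and in 2 of 14 that did not. Of the 11530 tested genes with a window, 4.39% had them, and of all 32851 windows, 2.26%. The stretches are shown to let the 4 fallen genes be compared with the 2 that did not pass, with the E2F letters in capitals, 5′ to 3′ on the gene's strand, with coordinates in GRCm38. Lig1 has 3 windows, of which 1 holds the letters, and Rad51c has 2, which both hold them.

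Chek2 (fell, chr5:110839820-110839849, plus): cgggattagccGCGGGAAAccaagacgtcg
Bard1 (fell, chr1:71103163-71103192, minus): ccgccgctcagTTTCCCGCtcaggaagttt
Msh6 (fell, chr17:87975054-87975083, plus): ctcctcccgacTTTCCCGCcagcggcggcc
Lig1 (fell, chr7:13278841-13278870, plus): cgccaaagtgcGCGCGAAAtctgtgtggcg
Rad51c (did not pass, chr11:87404477-87404506, minus): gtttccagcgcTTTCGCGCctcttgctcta
Rad51c, other window (did not pass, chr11:87404941-87404970, minus): cccccgcgaggGCGGGAAAagcaaggggtc
Brca2 (did not pass, chr5:150522442-150522471, plus): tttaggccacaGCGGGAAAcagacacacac

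The CHR letters were TTTGAA or TTCGAA on either strand. They were found for 5 of the 30 genes (Fignl1, Rad51b, Bard1, Atr and Tdp1), beside 17.0% of tested genes with a window and 19.2% of all windows. The letters CCAAT on either strand were found for 17 of 30, beside 42.5% and 37.4%. Such a match describes letters in a window and does not show that a factor binds.

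The other repair genes of a longer list gave the wider pathway. Of 140 found in the table, 136 were tested. Of these, 35 fell, 13 rose and 88 did not pass, with a median log2 change of -0.10. Over all genes tested the shares were 14.0% lower and 13.5% higher, so 13 of 136 rising was below the share of all genes. With scaling by library size alone the counts were 48 lower and 4 higher. Leaving out 1 library gave 21 lower (without PBS 2) to 36, and 4 higher (without DOX 3) to 15.

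By role, 9 of 28 further recombination genes fell and 2 rose (median -0.34), and 7 of 16 further checkpoint genes fell and 0 rose (median -0.36). Of 13 further Fanconi genes, 3 fell and 1 rose (median 0.04). In base excision repair, 6 of 21 fell and 3 rose (median -0.31). In nucleotide excision repair 1 of 20 fell and 3 rose (median 0.08), and in end joining 1 of 14 fell and 2 rose (median -0.06). Of 6 further mismatch genes 1 fell (median -0.12), and of 13 genes of direct reversal and translesion synthesis 4 fell (median -0.09). Of 5 single-strand binding genes, 3 fell and 2 rose (median -0.54).

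Several genes outside recombination were among those that fell with the smallest p. Timeless, of the complex that protects replication forks, had a log2 change of -1.61 (adjusted p = 0.000661), and Fancg, of the Fanconi core complex, -1.63 (adjusted p = 0.002). Mgmt, which removes alkyl groups from guanine, had a log2 change of -0.92 (adjusted p = 0.000866), Aplf, a strand break repair factor of the base excision list, -1.59 (adjusted p = 0.00123) and Hltf, a fork remodeller, -0.75 (adjusted p = 0.00135).

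Of the 13 that rose, 2 were recombination genes and 2 were end-joining genes. Paxx, of end joining, had 10.1, 10.2 and 7.59 CPM in PBS and 20.6, 19.6 and 15.4 CPM in DOX (log2 change 1.0, SE 0.16, adjusted p = 0.00152). Xpa, of nucleotide excision repair, had a log2 change of 0.75 (adjusted p = 0.00531). Apex1, of base excision repair, had 0.50 (adjusted p = 0.00604). Brcc3, a deubiquitinase of the BRCA1-A complex, and Nabp2, a single-strand binding protein, had 0.45 (adjusted p = 0.013) and 0.40 (adjusted p = 0.0152). Brcc3 did not pass without PBS 1 (0.0546) or DOX 3 (0.0523), nor Nabp2 without PBS 2 (0.0696), PBS 3 (0.0588) or DOX 3 (0.058), nor either with scaling by library size alone. Limma on log2(FPKM + 1) without a filter did not call Xpa (adjusted p = 0.0872) or Apex1 (0.0857).

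**Figure D4:**
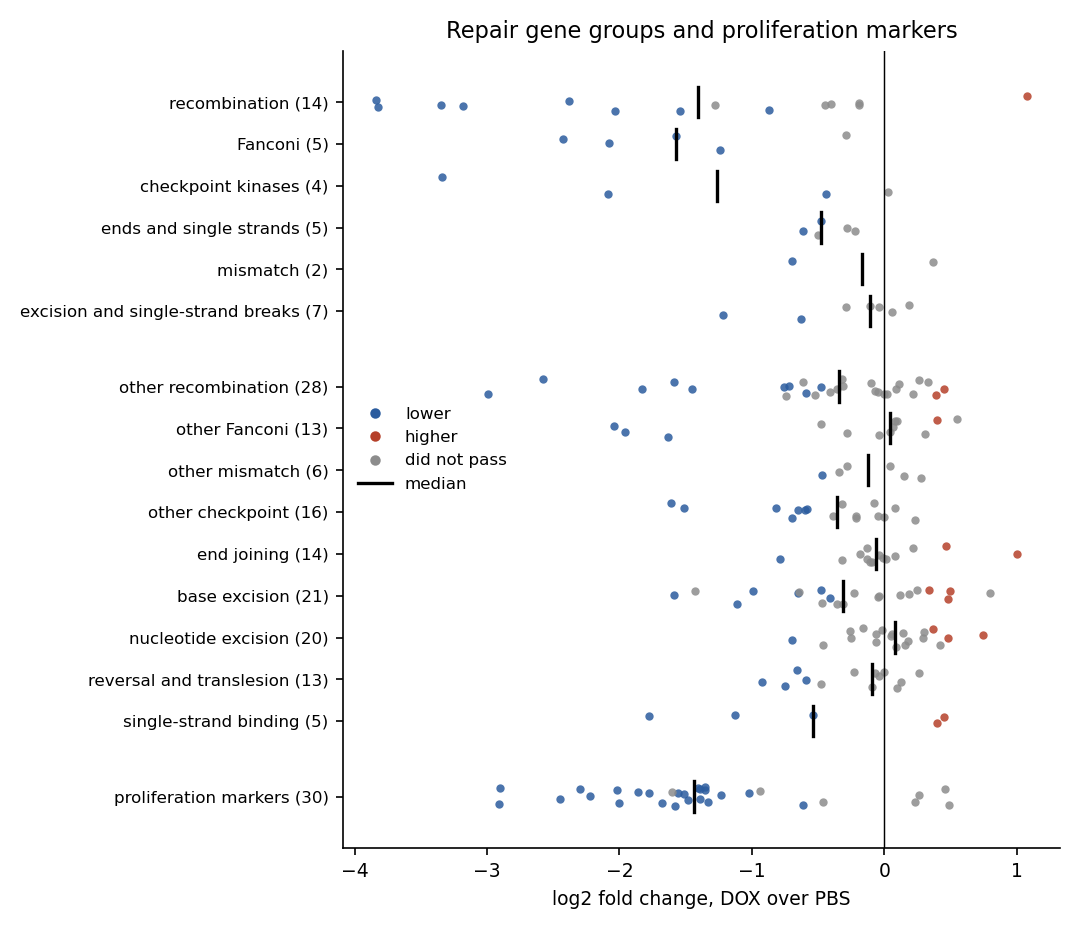
Log2 fold change in DOX over PBS of each tested gene (points) and the median (bar) in the 6 groups of the 37 repair genes, 9 groups of other repair genes and 30 proliferation markers, with the number of genes in brackets. Within the 37, the medians of recombination (-1.41) and Fanconi genes (-1.57) lie near that of the proliferation markers (-1.44). That of the excision group lies at -0.11. Among the other repair genes, the medians were -0.34 for recombination, 0.04 for Fanconi, -0.31 for base excision and 0.08 for nucleotide excision genes.

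Most proliferation markers fell as well. Of 30, 23 fell and none rose, beside 14.0% lower and 13.5% higher of all genes tested. The other 7 did not pass, and 4 of the 30 had a positive change. Their median log2 change over the 30 was -1.44. Their summed levels were 205, 313 and 185 CPM in PBS 1 to 3 and 113, 113 and 115 CPM in DOX 1 to 3, with PBS 2 the highest, as for 26 of the 37 repair genes. Mki67, a marker of cycling cells, had 14.8, 13.4 and 10.4 CPM in PBS and 4.66, 6.28 and 4.16 CPM in DOX (log2 change -1.35, adjusted p = 0.000855). Top2a, Cdk1 and Mcm2 had log2 changes of -2.02 (adjusted p = 0.0015), -1.78 (adjusted p = 0.00311) and -1.68 (adjusted p = 0.000284). Of the 37 repair genes, 12 had a change more negative than the median of these markers. In whole liver RNA, fewer cells of a type and less RNA per cell cannot be told apart, and the part of proliferation in the repair genes' changes was not tested.

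Markers of other cells gave a mixed picture. Over all genes tested, 14.0% were called lower and 13.5% higher, and several counts here lie near those shares. The summed levels did not overlap between the groups for T, B and NK cells, for stellate cells and fibroblasts, and for endothelial cells. They overlapped for macrophages, bile duct cells, neutrophils and erythroid cells. Of 13 tested markers of T, B and NK cells, 3 fell (Cd8b1, Cd79b and Nkg7), and the 16 listed summed to between 9.23 and 14.0 CPM in PBS and between 3.84 and 6.85 CPM in DOX. Ms4a1, a B cell marker, was not tested, and had 12, 5 and 2 counts in PBS 1 to 3 and 2, 0 and 0 counts in DOX 1 to 3. Stellate cell and fibroblast markers fell for 5 of 10 and rose for 1, with sums of 1560 to 1970 CPM in PBS and 1030 to 1330 CPM in DOX. Macrophage markers fell for 1 and rose for 3 of 12, with sums of 1480 to 1600 CPM and 1580 to 1620 CPM. Bile duct markers fell for 2 and rose for 1 of 10, with sums of 812 to 985 CPM and 574 to 824 CPM. Endothelial markers rose for 4 of 10 and fell for 0, with sums of 234 to 274 CPM and 276 to 338 CPM. Of 8 tested neutrophil markers 2 fell and 3 rose, with sums of 45.6 to 69.1 CPM and 44.4 to 95.3 CPM, and Mpo and Ly6g had 0 counts in PBS. Of 7 tested erythroid markers 1 fell and 0 rose, with sums of 211 to 233 CPM and 157 to 382 CPM. Hepatocyte markers rose for 7 of 14 and fell for 0. The part of these cells in the repair genes' changes was not tested.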

How the data were processed

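Per the labels' protocols, RNA of 3 PBS and 3 DOX mouse liver samples was extracted with an RNeasy kit and made into SMARTER mRNA-seq libraries. Raw counts per gene symbol and FPKM values of these 6 libraries were deposited by the authors. Deposited counts divided by deposited FPKM gave one gene length in all libraries, to a relative difference of 1e-06, so FPKM is a rescaling of the counts by length and library total. The submitters' processing notes name GRCm38, mm10 and hg38 but assign none of them a use. The sources used here give no aligner, counter, annotation or handling of strand and of reads with several matches.

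Counts were tested with edgeR 4.0.16 (R 4.3.3): filterByExpr with a minimum count of 10 and total of 15, TMM scaling, robust quasi-likelihood fit on group alone, Benjamini-Hochberg adjustment over 14681 genes, threshold 0.05. The SE of a log2 change is its size divided by the square root of F. The biological coefficient of variation was 0.155, and the scripts were tested on simulated counts. Libraries of 1 group differed beyond sampling noise (chi-square per degree of freedom of 30.1 to 82.0), so none was taken as a copy. Alternatives were DESeq2 1.42.0, limma 3.58.1 on log2(FPKM + 1) and log2(FPKM + 0.1), RLE scaling, library size alone, no filter, a replicate block, and each library left out.

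The members and lists were chosen with earlier results of these data known. Values in every library are given for members that passed and for the excision group. Other genes named are Bche, 4 proliferation markers, the nearest protein-coding genes beside the 2 members with the largest change, and up to 6 other repair genes in each direction by smallest p. Of these, 1 in each direction is not reported here. Gene positions and promoters are from RefSeq, and transcripts and exon overlaps from GENCODE M21, all on GRCm38. Protein-coding genes share exon bases with 9 members (Rad54l, Rad54b, Fanca, Fancd2, Fanci, Msh6, Pms2, Lig1 and Ercc1), whose counts are uncertain to that extent.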

Additional observations from a re-analysis of the deposited data

How the results depend on the processing

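Of the 20 repair genes that fell, 7 passed the threshold in all 14 alternatives (Chek2, Fancb, Fignl1, Lig1, Msh6, Parp1 and Rad51b) and 13 did not in at least 1. With DESeq2 the counts of 20 lower and 1 higher were the same. Limma on log2(FPKM + 1) with no filter gave 8 lower and 0 higher; for recombination genes it gave 2 lower, and 5 after the filter. The pseudocount shrinks the change of low genes by construction: the recombination median was -0.20 on log2(FPKM + 1) with or without the filter and -0.81 on log2(FPKM + 0.1). Leaving out each library gave 11 to 20 lower repair genes, 5 to 9 lower recombination genes, a recombination median of -1.74 to -1.02, and 21 to 36 lower and 4 to 15 higher among the other repair genes.

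Of the other repair genes, 13 rose; this was 4 with library size alone, 4 with limma on log2(FPKM + 1), 3 on log2(FPKM + 0.1), 1 with limma on log2(FPKM + 1) without a filter, and 8 with the replicate block. The deviations from the group mean had correlations of 0.0861, -0.0731 and -0.134 in the 3 same-numbered pairs. PBS 3 and DOX 2, which do not share a number, had 0.192. With 3 libraries in a group, these values cannot show whether samples were paired, and the labels do not say. The replicate block gave 18 lower repair genes and 7 lower recombination genes with a median of -1.31; Rad54l (adjusted p = 0.0758) and Rpa2 (adjusted p = 0.0751) did not pass.

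The median of the excision group was -0.26 with library size alone, 0.00 without PBS 3 and 0.03 without DOX 2. Among single genes, the sign turned for 5 that lay near 0 and did not pass. Atr was -0.13 with library size alone, -0.10 with limma on log2(FPKM + 1), filtered or not, -0.14 on log2(FPKM + 0.1), and -0.13 to 0.14 on leaving out each library. Xpc was -0.09, -0.08 and -0.09 in those analyses and -0.04 to 0.18. Ddc was -0.04, -0.02 and -0.02, and -0.03 to 0.26. Leaving out each library gave -0.19 to 0.04 for Xrcc1 and -0.11 to 0.03 for Ercc1. With 1 to 21 counts per DOX library for Rad51ap1, Exo1 and Rad51b, depth limits how well the size of their falls is known. The cause of the calls lost was not tested.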
